A study of Rattus norvegicus with 24 samples.

Results

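The 9 genes of the family of regulators of G protein signalling (RGS) described here, Rgs2, Rgs4, Rgs5, Rgs7, Rgs8, Rgs9, Rgs10, Rgs14 and Rgs16, were followed in 6 regions of the rat brain. Every probe that was not a control and whose gene name, or current rat symbol, was one of these 9 was taken, which gave 10 of the 41012 probes of the array. Rgs4 had 2 probes and each other gene had 1. The probes were read apart.

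The animals were 9 male Wistar rats of 10 weeks, for which the labels name no introduced allele. In all, 3 rats received saline, and the others received intraperitoneal MK-801, which blocks the open channel of NMDA receptors for glutamate, at 0.08 mg per kg (the low dose) or 0.16 mg per kg (the high dose). Brains were removed 40 min after the injection and divided into cerebral cortex, hippocampus, ventral striatum, amygdala, hypothalamus and midbrain. Each of the 24 two-colour arrays carried RNA of MK-801 rats in 1 dye and of saline rats in the other, and every region and dose had 1 dye swap of 2 arrays, 12 dye swaps in all. The labels tie no array to an animal and do not say whether RNA was pooled, so each dye swap gave 1 value, and the p-values below reflect how values differ between regions. The 3 saline rats served as controls for either dose, and whether the 2 dye swaps of a region used the same saline RNA is not stated. Whole pieces of tissue were used, in which fewer cells of a type and less RNA per cell cannot be told apart.

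RGS proteins speed the hydrolysis of GTP by the alpha subunits of heterotrimeric G proteins and thereby shorten signalling from G protein coupled receptors. The members of the R4 subfamily (Rgs2, Rgs4, Rgs5, Rgs8 and Rgs16) are small proteins made of little more than the RGS domain, and several of them are themselves controlled at the level of transcription. The R7 subfamily (Rgs7 and Rgs9) acts as a dimer with the beta subunit Gnb5, and the R12 subfamily here comprised the small protein Rgs10 and the scaffold Rgs14.

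Of the 9 genes, 6 lay on chromosome 13 by the probe positions in the files (assembly rn3). The 2 Rgs4 probes matched chr13:85548287-85548346 and chr13:85550968-85551027, both on the minus strand, 2.68 kb apart. The Rgs5 probe lay at chr13:85494730-85496364 on the plus strand, 51.92 kb from the nearer Rgs4 probe. The probes of Rgs8 (chr13:68780169-68780228, plus strand) and Rgs16 (chr13:68822446-68823167, plus strand) were 42.22 kb apart. The remaining probes lay at chr13:57905038-57905097 (Rgs2, minus), chr13:90921320-90921379 (Rgs7, minus), chr10:98612855-98612914 (Rgs9, minus), chr1:187784730-187784789 (Rgs10, minus) and chr17:15293763-15293822 (Rgs14, minus). No annotation of rn3 was used here, so exons and untranslated parts are not stated, and which splice forms a probe detects was not determined. The sequences of 3 probes are shown because they are what the array measured for the Rgs4 probe that ranked the regions differently from its partner, for Rgs5, whose 60 bases spread over a longer stretch of the genome, and for Rgs10, whose mean over both doses was above 0 in 5 of the 6 regions.
Rgs4 (A_44_P512255): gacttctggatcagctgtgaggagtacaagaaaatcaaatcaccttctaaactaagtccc
Rgs5 (A_43_P12029): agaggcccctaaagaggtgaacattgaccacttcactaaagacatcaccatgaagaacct
Rgs10 (A_44_P342047): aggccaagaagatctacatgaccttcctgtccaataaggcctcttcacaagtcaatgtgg

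An array measured between 55.22% and 78.48% of its probes well above background in both of its colours. All 24 arrays measured 9 of the 10 Rgs probes in this way. The Rgs16 probe was measured so on 4 arrays only, all of them hypothalamus, and was not tested. Marker genes, in part chosen after the data had been seen, were set beside the region labels. All 14 striatal neuron genes were highest in the ventral striatum, 8 of 9 monoamine neuron genes in the midbrain and 5 of 7 hippocampal genes in the hippocampus. Of 13 hypothalamic peptide genes, 3 were highest in the hypothalamus (Pmch, the melanin-concentrating hormone, read 13.07 there and at most 9.93 elsewhere). Some of the 13 hardly differed between regions, such as Kiss1 (7.0 to 7.3) and Hcrt (8.2 to 8.8). Others were clearly higher outside the hypothalamus. Avp read 11.07 in the amygdala against 9.142 in the hypothalamus, and Cartpt 13.77 in the midbrain against 9.379. Npy read 14.58 in the ventral striatum against 12.45 in the hypothalamus. Of 11 genes that mark thalamus, 9 were highest in the hypothalamus, so these libraries carried thalamic markers beside the hypothalamic label. The cortex and amygdala had no marker list of their own.

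In saline RNA the members differed widely in how far they separated the regions. A level here is the log2 intensity of the saline channel after normalization within and between arrays, given as the value of the dye swap with the high dose and that with the low dose; each region lay on 1 slide and its saline arrays are tied to no animal, so levels are a description without a test, and region and slide cannot be told apart. Levels of different probes were not compared. The distance between the highest and lowest region was 6.13 log2 units for Rgs9, 4.67 for Rgs14, 3.43 and 2.75 for the Rgs4 probes, 2.53 for Rgs8, 2.26 for Rgs2, 1.37 for Rgs10, 1.07 for Rgs7 and 0.852 for Rgs5. Over all 27397 kept probes with a value in every region its median was 0.757, and 31.97% of probes exceeded 1.

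**Figure D1:**
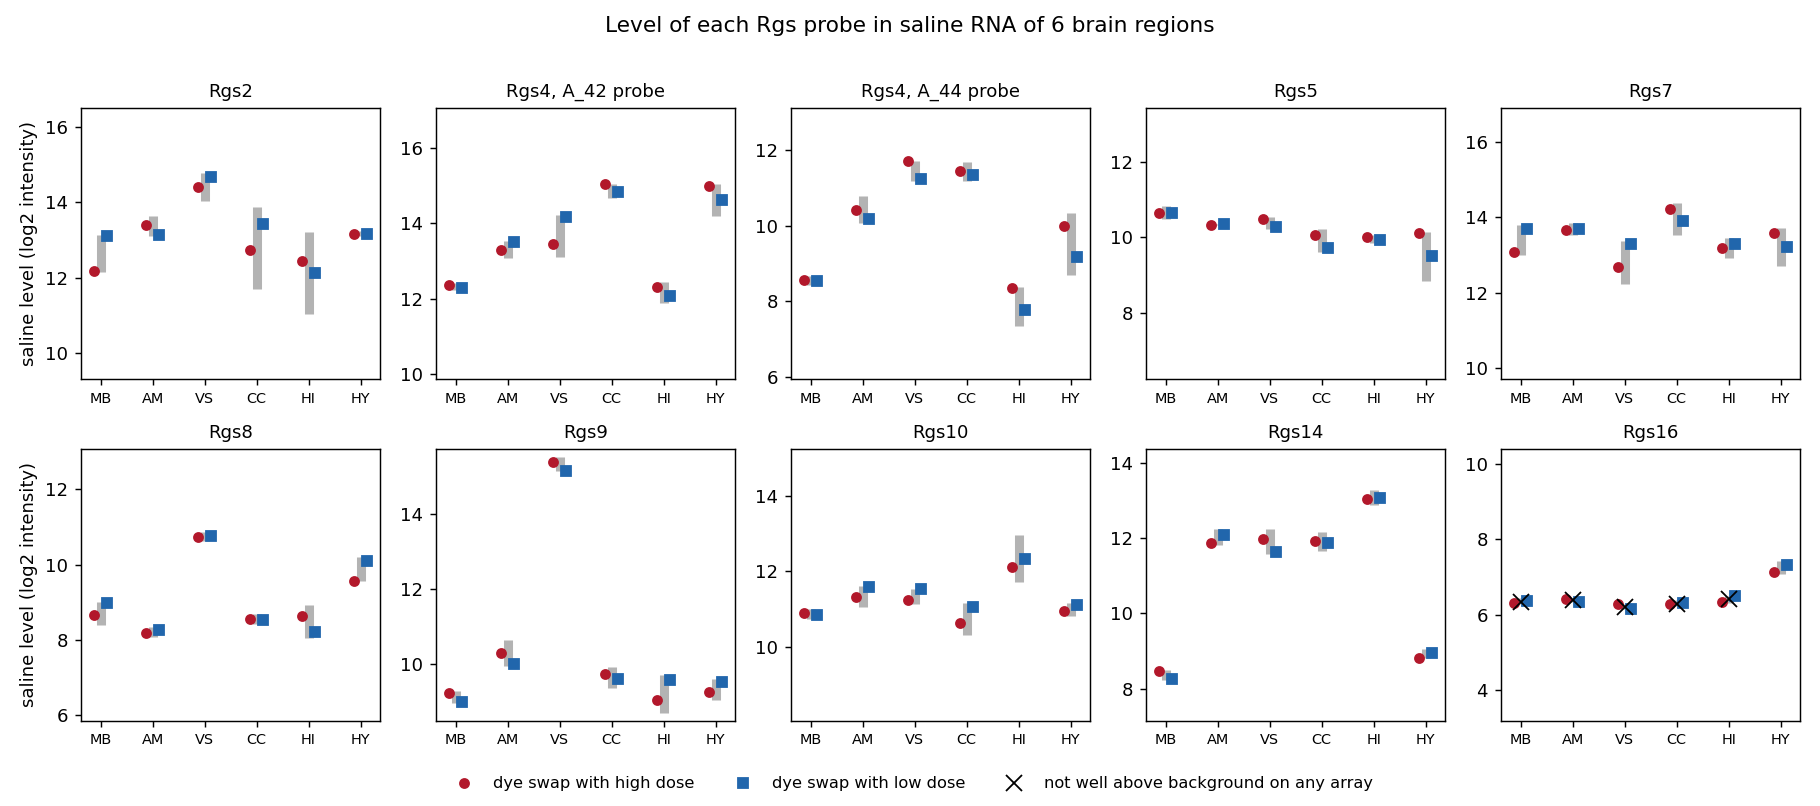
Level of each Rgs probe in saline RNA (vertical axis, log2 intensity; every panel spans the same range) in midbrain (MB), amygdala (AM), ventral striatum (VS), cerebral cortex (CC), hippocampus (HI) and hypothalamus (HY). Red circles are the mean of the dye swap shared with the high dose, blue squares that shared with the low dose, and grey bars run from the lowest to the highest of the 4 arrays; a cross marks a region where no array was well above background. Rgs9 stands out in the ventral striatum and Rgs14 falls away in midbrain and hypothalamus.

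Among the R7 members, Rgs9, known for a long splice form of striatal neurons that restrains dopamine and opioid receptor signalling, read 15.38 and 15.14 in the ventral striatum. The amygdala followed with 10.3 and 9.999, the cerebral cortex with 9.741 and 9.624, the hypothalamus with 9.271 and 9.543, the hippocampus with 9.057 and 9.581 and the midbrain with 9.251 and 9.009. The ventral striatum thus exceeded the amygdala 34.5-fold, and the last 3 regions overlapped. The distance between its highest and lowest region lay at the 99.95 percentile of the kept probes. Rgs7, a partner of Gnb5 in many neurons, was spread more evenly, with 14.21 and 13.9 in the cerebral cortex, 13.67 and 13.7 in the amygdala and between 12.68 and 13.68 in the other 4 regions, which overlapped. The higher midbrain dye swap, 13.68, also reached the amygdala.

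Of the R12 members, Rgs14, a scaffold known in mice to limit plasticity at synapses of hippocampal CA2 neurons, was highest in the hippocampus with 13.04 and 13.07. The amygdala (11.87 and 12.08), cerebral cortex (11.92 and 11.88) and ventral striatum (11.97 and 11.64) overlapped with each other below it. The hypothalamus read 8.812 and 8.943 and the midbrain 8.481 and 8.271, so that the hippocampus was 25.5-fold above the midbrain. Of 7 CA2 genes with a level in every region, 2 were highest in the hippocampus. Rgs10, present in microglia and in neurons, was also highest in the hippocampus, with 12.11 and 12.33, against 11.32 and 11.58 in the amygdala and 11.25 and 11.52 in the ventral striatum. The microglial genes did not share that order: 9 of 11 were highest in the amygdala and 2 in the hippocampus.

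Within the R4 subfamily, Rgs2, which acts mainly on Gq and is induced rapidly by many stimuli, read 14.4 and 14.67 in the ventral striatum and 13.4 and 13.13 in the amygdala, the next region. The hypothalamus and cerebral cortex overlapped with the amygdala, and the midbrain and hippocampus lay below it. In the cerebral cortex and hippocampus single arrays spread by 1.00 and 1.07 (SD of 4 arrays). Rgs8, a neuronal regulator of Gi and Gq signalling, read 10.74 and 10.77 in the ventral striatum, 9.563 and 10.11 in the hypothalamus and at most 8.998 elsewhere. Rgs5, a gene of pericytes, read 10.65 in both dye swaps of the midbrain and between 9.488 and 10.48 in the other regions. The pericyte and smooth muscle genes were not ordered in that way, since 1 of 11 was highest in the midbrain and 4 were highest in the amygdala.

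The 2 probes of Rgs4, which acts on Gi and Gq and is abundant in the neocortex, agreed on a high cortex and a low hippocampus and differed over the top region. The first probe (A_42_P743580) read 15.04 and 14.83 in the cerebral cortex and 14.98 and 14.61 in the hypothalamus, which overlapped, then 13.45 and 14.17 in the ventral striatum, 13.29 and 13.51 in the amygdala, 12.36 and 12.29 in the midbrain and 12.3 and 12.06 in the hippocampus. The second probe (A_44_P512255), whose sequence is given above, read 11.72 and 11.25 in the ventral striatum and 11.45 and 11.35 in the cerebral cortex, which overlapped. It then read 10.43 and 10.17 in the amygdala, 9.994 and 9.184 in the hypothalamus, 8.567 and 8.535 in the midbrain and 8.339 and 7.757 in the hippocampus. The hypothalamus was therefore level with the cortex by the first probe and below the amygdala by the second.

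Rgs16, an inducible member, read 7.139 and 7.315 in the hypothalamus. In each of the other 5 regions its probe was not well above background on any of the 4 arrays. Measured against the lowest signal that counted as well above background there, the hypothalamus was at least 1.56-fold (hippocampus) to 1.90-fold (cerebral cortex) higher.

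The named genes whose saline levels ran most like those of each member over the 12 dye swaps were listed for members with a distance above 1. These correlations were taken over 12272 named genes and describe points that come in pairs from the same region. For Rgs9 they were the dopamine receptor gene Drd1 (r = 0.994), Ppp1r1b, which encodes DARPP-32 (0.984), and the orphan receptor gene Gpr6 (0.983), and for Rgs14 they were Crym, a thyroid hormone binding protein (0.989), the AMPA receptor subunit Gria2 (0.987) and Gas7 (0.985). For Rgs8 they were Dnaaf1, Pmepa1 and Gnal, the olfactory and striatal G protein alpha subunit (0.931 to 0.924), for Rgs2 they were Ndc1, the protein kinase A subunit Prkar2b and Mospd3 (0.943 to 0.936), and for Rgs10 they were Epha6, the mineralocorticoid receptor Nr3c2 and Fbln2 (0.954 to 0.923). The first Rgs4 probe ran most like Ccl17, Clec2d and the potassium channel Kcnf1 (0.916 to 0.887), and Rgs7 most like Klf6, Zfp367 and Lhx3 (0.862 to 0.854).

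No member passed the test for a change with MK-801 across the regions. By limma, 0 of the 9 tested Rgs probes passed an adjusted p under 0.05 (Benjamini-Hochberg over all probes) over both doses, at the high dose, at the low dose or in the difference between the doses. Over all probes the shares that passed were 2.46%, 2.01%, 2.42% and 1.44%. With the array number as a replicate block 1795 probes passed over both doses in place of 671, and again 0 Rgs probes. At an unadjusted p under 0.05 the count was also 0 of 9 in each, against 13.5%, 12%, 12.9% and 10.8% of all probes. Ratios are log2 of MK-801 over saline, and the mean over regions is given as mean ± SD over n regions.

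The first Rgs4 probe had the mean farthest from 0 over both doses, -0.11 ± 0.21 (n = 6, below 0 in 5 of the 6 regions, limma adjusted p = 0.462, 95% interval -0.24 to 0.02), and the second read -0.07 ± 0.21 (n = 5, 1 dye swap with an outlying spot being left out, adjusted p = 0.711). Rgs10 was at 0.05 ± 0.07 (n = 6, above 0 in 5 of the 6 regions, limma adjusted p = 0.482, interval -0.01 to 0.10). The means of the other 6 probes lay between -0.03 and 0.01. Of these, the intervals of Rgs5 (-0.06 to 0.04), Rgs8 (-0.07 to 0.05) and Rgs14 (-0.08 to 0.02) were the narrowest, and those of Rgs2 (-0.10 to 0.08), Rgs7 (-0.10 to 0.11, n = 5 for the same reason) and Rgs9 (-0.17 to 0.11) were wider.

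**Figure D2:**
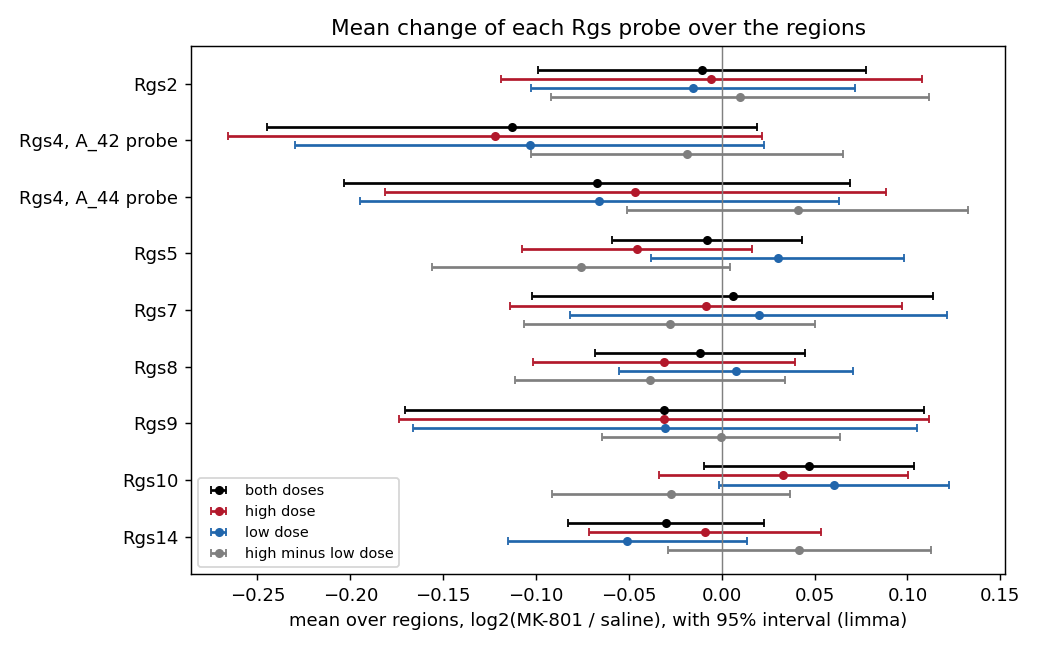
Mean over regions of log2 MK-801 over saline (horizontal axis) for the 9 tested Rgs probes, with 95% intervals from limma, for both doses (black), the high dose (red), the low dose (blue) and the high minus low difference (grey). Every interval includes 0, and the intervals of Rgs4 and Rgs9 are among the widest.

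No member passed the test of a difference between the doses. The largest difference, for Rgs5, was -0.08 ± 0.09 for the high minus the low dose (n = 6, lower in 5 of 6 regions, adjusted p = 0.495, limma), from -0.05 ± 0.06 at the high and 0.03 ± 0.08 at the low dose. For Rgs9 the difference was 0.00 in the mean, with an SD of 0.03 and an interval of -0.06 to 0.06, with the saline rats common to both terms.

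Behind these means, single regions of Rgs4 and Rgs9 stood far from the rest. With 1 dye swap per region and dose a single region has no test, and the values are given as a description. In the midbrain the first Rgs4 probe read -0.56 at the high dose, from arrays at -0.40 and -0.72, and -0.51 at the low dose, from arrays at -0.35 and -0.67. The second probe read -0.41 there at the high dose, from arrays at -0.47 and -0.34, and -0.45 at the low dose, from arrays at -0.64 and -0.25. All midbrain arrays of both probes were thus below 0.

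Elsewhere the first probe lay between -0.14 and 0.10 at the high dose and between -0.06 and 0.02 at the low dose. The second probe lay between 0.01 and 0.07 at the high dose in the 4 other measured regions and between -0.14 and 0.15 at the low dose. Without the midbrain the mean of the first probe over both doses was -0.03 (adjusted p = 0.712, limma), and that of the second was 0.02 (0.833). Within single scan days, which hold 2 regions each, the first probe's mean was -0.27 (adjusted p = 0.593) for midbrain and amygdala, and for the other days it was -0.07 (0.527) and 0.01 (0.995).

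**Figure D3:**
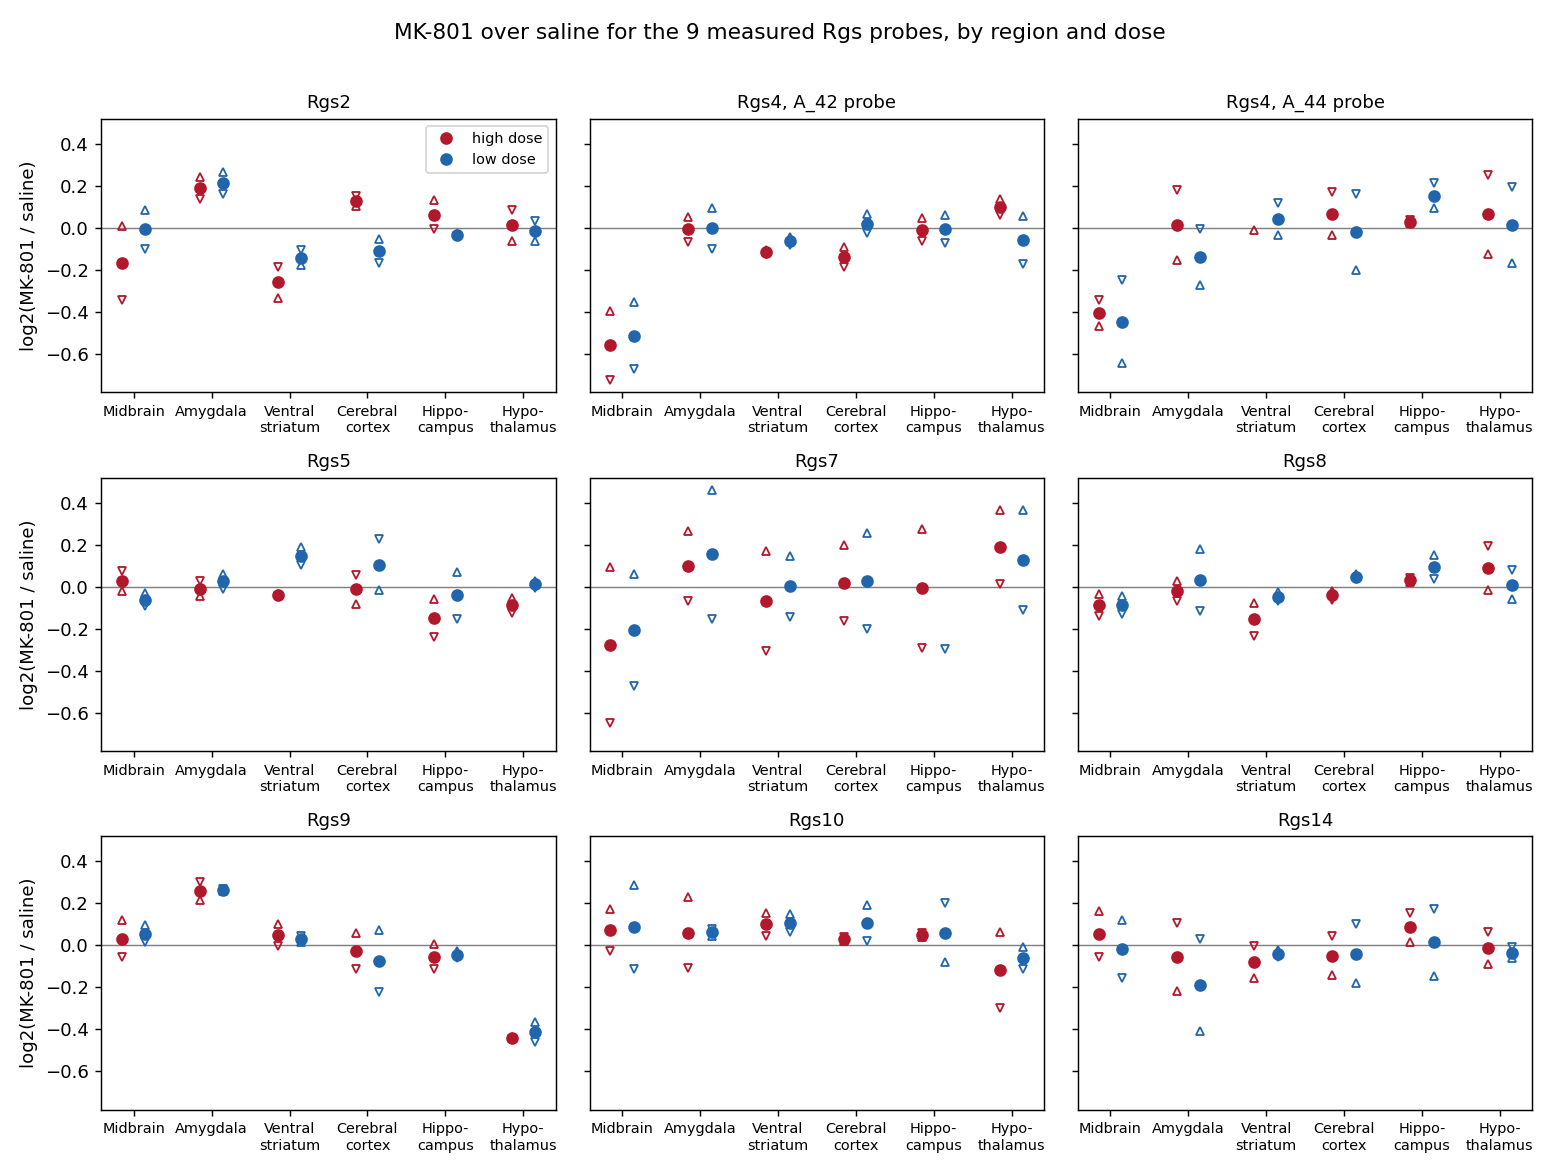
Log2 MK-801 over saline (vertical axis) for the 9 tested Rgs probes by region, at the high dose (red) and the low dose (blue). Filled circles are the mean of a dye swap and open triangles its 2 arrays (pointing up with saline in Cy3, down with saline in Cy5); a missing circle means that 1 array was left out. Both Rgs4 probes lie low in the midbrain, Rgs9 lies low in the hypothalamus and high in the amygdala, and the arrays of each Rgs7 dye swap lie far apart.

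The genes whose ratios ran most like those of the first Rgs4 probe over the 12 dye swaps, listed after the regional values had been seen, were Prkcd, a protein kinase C abundant in thalamic neurons (r = 0.941 among 10810 named genes), Bok (0.932) and the GABA-A receptor subunit Gabrd (0.932). The points share regions and saline rats. Prkcd read -0.89 at the high dose and -1.17 at the low dose in the midbrain, and between -0.11 and 0.19 elsewhere. Of 11 thalamic genes, a list chosen after Prkcd had been seen, 9 were below 0 in the midbrain at the high dose (median -0.19, range -0.89 to 0.21) and 10 at the low dose (median -0.16, range -1.17 to 0.06). Their medians lay between -0.06 and 0.09 in the other regions. In saline RNA the summed level of the list was 15.8 and 15.79 in the midbrain, second to the hypothalamus (16.93 in both dye swaps) and at most 13.92 in the rest. Over both doses 0 of the 11 passed.

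Other marker genes also moved on the midbrain arrays. Of the monoamine neuron genes 7 of 9 were above 0 at the high dose and 8 of 8 at the low dose (medians 0.06 and 0.15), with Tph2, the serotonin-forming enzyme of neurons, highest at 0.77 and 1.42. The pericyte and smooth muscle genes were above 0 in 10 of 10 at the high dose (median 0.12, Tagln highest at 0.74) and below 0 in 8 of 10 at the low dose (median -0.02). Microglial genes were above 0 in 10 of 11 and 10 of 10 (medians 0.11 and 0.18), and 7 and 8 of 10 forebrain projection neuron genes were below 0 (medians -0.07 and -0.06). The part of any of these cells or tissues in the Rgs4 values was not tested.

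For Rgs9 the hypothalamus read -0.44 at the high dose, from arrays at -0.44 and -0.45, and -0.41 at the low dose, from arrays at -0.37 and -0.46. The amygdala lay on the other side, with 0.26 at each dose and all 4 arrays between 0.22 and 0.30. Every hypothalamus array was below 0 and every amygdala array above it, though both doses share the saline rats and the arrays of a region are not independent. The other 4 regions lay between -0.08 and 0.06, and in the ventral striatum, where the level was highest, the values were 0.05 and 0.03. Without the hypothalamus the mean over both doses was 0.05 (adjusted p = 0.675, limma) and without the amygdala it was -0.09 (0.529).

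The genes running most like Rgs9 included the adenosine receptor gene Adora2a (r = 0.943) and Pik3ca (0.882). Adora2a read -0.43 and -0.37 in the hypothalamus and 0.49 and 0.48 in the amygdala. Of the 14 striatal neuron genes, 9 were below 0 in the hypothalamus at the high dose (median -0.10) and 13 at the low dose (median -0.13), with Pdyn, the dynorphin precursor, lowest at -0.59 and -0.72. In the amygdala 12 were above 0 at the high dose (median 0.06) and 11 at the low dose (median 0.12). Their medians in the other 4 regions lay between -0.02 and 0.05. In saline RNA their summed level was 15.79 and 15.88 in the hypothalamus, 15.61 and 15.78 in the amygdala and 18.73 and 18.78 in the ventral striatum. Over both doses 0 of the 14 passed.

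Other marker genes moved on the hypothalamus arrays as well. Of 10 forebrain projection neuron genes 7 were below 0 at the high dose (median -0.14, Lamp5 lowest at -0.40) and 6 at the low dose (median -0.09, Neurod2 lowest at -0.32). Endothelial genes were below 0 in 9 of 9 and 7 of 9 (medians -0.12 and -0.09). Monoamine neuron genes were below 0 in 8 of 9 and 6 of 9 (medians -0.08 and -0.04). The thalamic genes lay on the other side, above 0 in 9 of 11 and 7 of 11 (medians 0.09 and 0.01). Single genes lay much farther from 0, with Pmch at -2.96 and -1.76 and Th, the enzyme that forms the dopamine precursor, at -0.96 and -0.93. The part of any of these cells or tissues in the Rgs9 values was not tested.

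**Figure D4:**
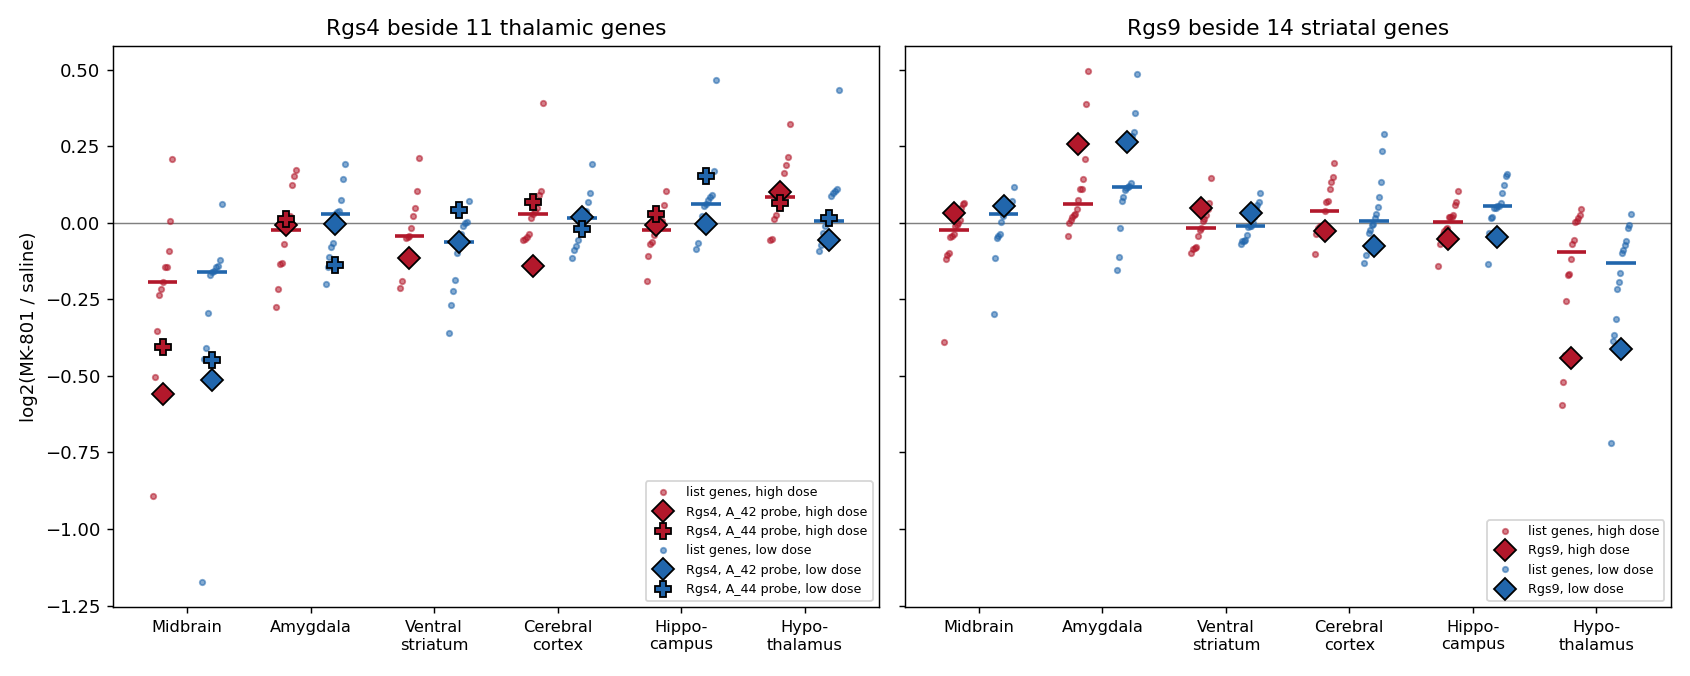
Log2 MK-801 over saline (vertical axis) by region at the high (red) and low (blue) dose. Left, the Rgs4 probes (diamonds and crosses) beside 11 thalamic genes; right, Rgs9 (diamonds) beside 14 striatal neuron genes; small points are genes and bars their medians. The thalamic median is -0.19 and -0.16 in the midbrain, where Rgs4 is lowest, and the striatal median is -0.10 and -0.13 in the hypothalamus, where Rgs9 is lowest.

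A 1.25-fold change in the same direction at both doses, a limit chosen after the data had been seen, was reached by both Rgs4 probes in the midbrain and by Rgs9 in the hypothalamus, each time as a decrease. Over all probes 0.191% did so in the midbrain and 0.183% in the hypothalamus. No other tested member reached it in any region, where the shares of all probes ran from 0.0563% to 0.214% in either direction.

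Rgs2 differed in sign between the amygdala and the ventral striatum. The amygdala read 0.19 at the high dose, from arrays at 0.24 and 0.14, and 0.21 at the low dose, from arrays at 0.27 and 0.16. The ventral striatum, where its level was highest, read -0.26 at the high dose, from arrays at -0.33 and -0.19, and -0.14 at the low dose, from arrays at -0.18 and -0.11. In the cerebral cortex the doses lay on opposite sides of 0, with 0.13 and -0.11, and the remaining regions lay between -0.17 and 0.06. Among 14 activity-induced genes, a class in which Rgs2 is often counted, 5 rose (Fos, Dusp1, Btg2, Ier2 and Ccn1) and 3 fell (Egr1, Egr2 and Nr4a3) over both doses by the same test. At the high dose 7 rose and 0 fell (limma; 9 of 14 had an unadjusted p under 0.05 in either direction), at the low dose 3 rose and 4 fell, and 9 were higher at the high than at the low dose. Examples were Dusp1, a MAP kinase phosphatase, at 0.84 ± 0.31 (n = 6, adjusted p = 0.00024, limma) and the transcription factor gene Egr2 at -0.31 ± 0.14 (0.00194).

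Rgs10 was above 0 in 5 regions, between 0.03 and 0.10 at the high dose and between 0.06 and 0.11 at the low dose, and below 0 in the hypothalamus (-0.12 and -0.06). Of 11 microglial genes, 1 rose over both doses, C1qc at 0.14 ± 0.05 (n = 6, adjusted p = 0.00456, limma), and 4 rose at the low dose (C1qa, C1qb, C1qc and P2ry12, from 0.11 to 0.22), where Rgs10 was at 0.06 ± 0.06 (adjusted p = 0.400). The part of microglia in the Rgs10 values was not tested.

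Rgs7 was lowest in the midbrain (-0.28 and -0.21) and highest in the hypothalamus (0.19 and 0.13) and amygdala (0.10 and 0.15). Its dye effect, the part of the ratio that did not turn with the dyes, was 0.24 ± 0.07 (n = 11 dye swaps, positive in 11 of 11), against a median size of 0.0726 over the kept probes. Only 25% of its probe's bases were G or C. In the midbrain its arrays read 0.09 and -0.65 at the high dose and 0.06 and -0.48 at the low dose, so the 2 dye orientations did not agree in sign. They also differed in sign in most other regions. Within each orientation and dose the midbrain was the lowest measured region. The other regions read 0.15 or more with saline in Cy3 and -0.31 or more with saline in Cy5.

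The regional values of Rgs5, Rgs8 and Rgs14 lay between -0.19 and 0.14. Rgs8 lay between -0.16 and 0.09 in all regions and doses, with its lowest value in the ventral striatum at the high dose, where its level was highest. Rgs5 lay between -0.15 (hippocampus, high dose) and 0.14 (ventral striatum, low dose). Over both doses 0 of 10 pericyte and smooth muscle genes passed, and of 9 endothelial genes 2 fell, the VEGF receptor gene Kdr (-0.24 ± 0.12, n = 6, adjusted p = 0.00353, limma) and Itm2a (-0.13 ± 0.03, 0.00364). The part of vessel cells in the Rgs5 values was not tested. Rgs14 lay between -0.08 and 0.09 except for the amygdala at the low dose, -0.19, whose arrays read -0.41 and 0.03. Its 4 ventral striatum arrays were all below 0, between -0.15 and -0.0027. In the hippocampus, its highest region, Rgs14 read 0.09 and 0.01, and 0 of 8 CA2 genes passed over both doses. Rgs16 in the hypothalamus, where it was detected, read 0.05 and -0.08 and was not tested.

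The rest of the pathway was read from lists chosen with earlier results of these data known. Of 11 other RGS family genes, 1 rose over both doses, Rgs1, a regulator best known from B cells and other immune cells, at 0.14 ± 0.07 (n = 6, adjusted p = 0.0161, limma). Rgs1 also rose at the high dose (0.23 ± 0.11, 0.00501) and in the high minus low difference (0.19 ± 0.09, 0.0161). The median of the list was 0.01, against -0.00 over all probes, and the saline levels of Rgs1 lay between 6.54 and 7.13, highest in the amygdala. These levels were close to the lowest signals counted as well above background for Rgs16 (6.30 to 6.59 outside the hypothalamus). The changes of Rgs1 were thus read near background.

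Of the 3 partners of the R7 subfamily with a kept probe, Rgs7bp, which anchors R7 dimers at the membrane, rose over both doses (0.15 ± 0.06, n = 6, adjusted p = 0.0067, limma) and at the low dose (0.17 ± 0.07, 0.0103). Gnb5 was at -0.03 ± 0.08 (n = 4) and the orphan receptor gene Gpr158 at 0.02 ± 0.06. All 3 had their highest saline level in the ventral striatum, as had Rgs9. Rgs7, the other R7 member, had its lowest mean level there (12.99), although its dye swaps overlapped with those of other regions.

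Among the G proteins themselves, 0 of 12 alpha subunit genes passed over both doses (median -0.02), with Gnai3 at 0.06 ± 0.08 (n = 4) and Gna12 at 0.06 ± 0.15 the farthest from 0. Of 13 beta and gamma subunit genes 0 passed over both doses (median -0.01), with Gng11 at -0.06 ± 0.12 and Gng8 at -0.06 ± 0.03 the farthest. Gnb3 rose at the low dose (0.12 ± 0.04, adjusted p = 0.024, limma) and was lower at the high than at the low dose (-0.25 ± 0.12, 0.00824). At the high dose it was below 0 and did not pass (-0.12 ± 0.11, adjusted p = 0.145, limma). Its saline levels lay between 6.685 (midbrain) and 7.004 (amygdala). Like those of Rgs1, they were close to the lowest signals counted as well above background for Rgs16 outside the hypothalamus. The changes of Gnb3 were thus also read near background.

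No gene of the remaining lists passed in any of the 4 comparisons. These were 8 receptor kinases and arrestins (median -0.01 over both doses, Grk5 at -0.05 ± 0.02 and Grk3 at -0.04 ± 0.04), 14 effectors (median -0.01, the potassium channels Kcnj3 at -0.09 ± 0.10, n = 5, and Kcnj6 at -0.06 ± 0.10) and 20 receptors coupled to Gi or Gq (median -0.01, the glutamate receptor Grm2 at -0.10 ± 0.08, n = 4, and the GABA-B subunit Gabbr2 at -0.07 ± 0.08, n = 5). At an unadjusted p under 0.05 the counts over both doses were 0 of 12 alpha subunits, 1 of 13 beta and gamma subunits, 1 of 8, 3 of 14 and 2 of 20, against 13.5% of all probes.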

How the data were processed

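Per the labels' protocols, RNA was purified on columns and then amplified with the dyes Cy3 and Cy5. Per the submitters' processing notes, arrays were read with Agilent Feature Extraction 9.5.3.1. The deposited scanner files hold fluorescence intensity per spot and colour; the genome assembly in the file headers is rn3. The deposited value table holds log10 of processed Cy5 over processed Cy3, as a comparison with the scanner files showed; it was neither turned for the dye swaps nor centred (array medians -0.0295 to 0) and served as an alternative.

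With limma 3.58.1 in R 4.3.3, intensities were background corrected (normexp, offset 50) and loess normalized. Control and outlier spots were dropped. Replicate spots were averaged per probe, with every ratio turned to log2 of MK-801 over saline. A probe was kept if 12 or more of the 24 arrays had it well above background in Cy3 and in Cy5 (27690 of 41012). A regional value needed both arrays of its dye swap, and a test at least 4 regions, except within single scan days, which hold 2 regions each. Regional values were tested against 0 with lmFit and eBayes and adjusted over all kept probes. Saline levels are log2 channel intensities after loess and Aquantile. Symbols came from the RefSeq gene table of GRCr8 (names only). A gene of a list was read from its brightest kept probe. Code was tested on simulated data.

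The members, lists and tests were chosen with earlier results of these data known. The rule named every member probe; of each list it named the genes that passed, or, where none did, the 2 farthest from 0; and for each member whose level spanned over 1 log2 unit the 3 genes most like it. Genes listed by ratio were chosen after seeing the values, and 1 of them is not reported here. Same-numbered arrays deviated together (median r 0.629 and 0.705), and a number also marks 1 dye orientation and dose, so a shared dye effect and shared animals cannot be told apart. The number of arrays limits the precision.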

Additional observations from a re-analysis of the deposited data

Results flagged for a closer look

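Among 36 sets of regional values, 8 held a region far from the others by Dixon's test. The test flags about 1 set in 20 by chance only for independent, normally distributed values. The sets share arrays, and both doses share saline rats. The first Rgs4 probe (A_42_P743580) had the midbrain apart over both doses (-0.54, the other 5 regions between -0.09 and 0.02), at the high dose (-0.56) and at the low dose (-0.51), and the second (A_44_P512255) at the high dose (-0.41, the other 4 between 0.01 and 0.07). Rgs10 had the hypothalamus apart over both doses (-0.0896, the others between 0.06 and 0.10), at the high dose (-0.12) and at the low dose (-0.0611). With median centring in place of loess, Rgs10 at the high dose read -0.35 in the hippocampus and -0.07 in the hypothalamus. The hypothalamus was then not its lowest region at that dose. Rgs14 had the amygdala apart at the low dose (-0.19, the others between -0.04 and 0.01).

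For 4 probes every array of 1 region lay above 0 and every array of another below it, and these differences were not tested. How many of all probes do so was not counted either. Over both doses the distance between such regions was 0.69 for Rgs9 (amygdala 0.26, hypothalamus -0.43), 0.52 for the second Rgs4 probe (hippocampus 0.09, midbrain -0.43), 0.40 for Rgs2 (amygdala 0.20, ventral striatum -0.20) and 0.17 for Rgs8 (hippocampus 0.06, ventral striatum -0.10, with the midbrain also below 0 on all arrays).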

How the results depend on the processing

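The count of Rgs probes that passed was 0 in each of the 4 comparisons under all settings other than those that leave out an array number: the scanner's own log ratios, the series value table, median centring, stricter and no filters, an intensity trend, scan day as a block or alone, each region left out, and, added after seeing the data, the midbrain and hypothalamus left out together. With the array number as a replicate block, which counts the arrays of a region as independent, it was also 0, so the block changed no call of a member. Leaving out an array number leaves a dose with 1 dye orientation; the counts then ranged from 0 to 1 over both doses, 1 to 2 at the high dose, 1 to 2 at the low dose and 1 to 2 for the difference. There Rgs7 changed sign between the orientations: at the high dose it was -0.24 without number 1 and 0.23 without number 2, at the low dose -0.23 without number 3 and 0.26 without number 4, and in the high minus low difference it was 0.20 and 0.22 without numbers 2 and 3 and -0.25 and -0.27 without numbers 1 and 4.

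Over all probes the counts moved more. Over both doses 671 passed, against 352 with the scanner's ratios, 346 with the value table, 367 with median centring, 1795 with the replicate block, 430 and 401 without the ventral striatum or cortex, and 342, 94 and 87 within the scan days. At the high dose 552 passed, against 282, 285, 155 and 754 (block); at the low dose 667, against 360, 351, 381 and 944; and in the difference 394, against 197, 195, 112 and 316. Leaving out the ventral striatum gave 347, 426 and 260 in these 3, leaving out the amygdala or cortex 345 and 320 at the high dose, and single scan days 134 to 331, 67 to 287 and 90 to 159. Without the midbrain and hypothalamus 437 passed over both doses, 332 at the low dose and 206 in the difference. The cause was not tested. With 1 dye orientation left they ranged from 4240 to 9649.

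The Rgs4 midbrain values ranged from -0.63 to -0.41 and those of Rgs9 in the hypothalamus from -0.51 to -0.39 over the 4 sources of ratios. Median centring also moved the hippocampus at the high dose. There it gave -0.39 for the first Rgs4 probe, -0.40 for Rgs5, -0.41 for Rgs7, -0.35 for Rgs10, -0.32 for Rgs14 and -0.23 for Rgs2. After loess these probes lay between -0.15 and 0.09 there. The second Rgs4 probe, Rgs8 and Rgs9 lay between -0.11 and 0.01 with median centring. The midbrain of the first Rgs4 probe, at -0.63, then stood less far from the other regions. The region with the highest saline level was the same for 9 or 10 of the 10 probes under each setting.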
